A study of Homo sapiens with 8 samples.

Results

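The MYC, MAX and MXD network was followed as 10 genes, MYC, MAX, MXI1, MXD1, MXD3, MXD4, MNT, MLX, MLXIP and MGA, taken by symbol from the 23193 genes counted, and all 10 were found in both the gene body and the transcription start site (TSS) region. Nascent RNA was measured by PRO-seq, which maps the positions of engaged RNA polymerase, in HCT116 cells, a human colorectal carcinoma line. Wild-type (WT) and HIF1A-/- cells were kept in normoxia or exposed to 1% O2 for 90 min (hypoxia), and every culture received the vehicle DMSO. Each of the 4 groups had 2 libraries, 8 altogether. The HIF1A-/- line was made by viral homologous recombination that disrupted internal exons of HIF1A, so that the start site remains and PRO-seq reads over the gene do not test the genotype.

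MYC is a basic helix-loop-helix leucine zipper transcription factor that activates genes of growth and biosynthesis as a dimer with MAX, and the dimer binds the E-box CACGTG. MAX also pairs with MXD1, MXI1, MXD3, MXD4 and MNT, which bring SIN3 and histone deacetylases to the same kind of site and oppose MYC there. MLX is a second hub that pairs with MLXIP (MondoA), a sensor of glucose metabolites, and with some MXD proteins, while MGA is a MAX partner found in a Polycomb-type repressor complex. MXI1 is known as a gene induced in hypoxia through HIF, the oxygen-regulated factor of which HIF1A is a subunit.

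Total reads ranged from 18125234 to 23622392 per library over gene bodies and from 2783581 to 5966348 over TSS regions. HIF1A gene body levels lay between 130 and 175 CPM (gene counts scaled to library depth) in all 8 libraries, and the genotypes overlapped. Of the epithelial markers, EPCAM (2.84 to 5.27 RPKM, which is CPM per kilobase), KRT8 (6.72 to 10.2), KRT18 (17.0 to 35.8) and CDH1 (0.707 to 1.51) were transcribed in every library, whereas VIL1 did not exceed 0.0212. Of the markers of other cell types, COL1A2, PTPRC and PECAM1 did not exceed 0.0265 RPKM, and COL1A1 lay between 1.21 and 2.98.

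The sequences before the start sites of MXI1, MXD1 and MNT are shown because these 3 genes had the highest log2 fold changes in WT hypoxia. Each run is the 250 bases before a RefSeq start, written 5′ to 3′ on the strand of the gene, from RefSeq (GRCh38.p14) and placed on GRCh37 by exact match. Capitals mark ACGTG and GCGTG, the forms of the core HIF motif searched on both strands, and the E-box CACGTG, which contains ACGTG. The RefSeq table held 14 windows for 9 of the 10 members, and MYC was not among them.
MXI1, 7 bp before the counted start, chr10:111985504-111985753, plus strand: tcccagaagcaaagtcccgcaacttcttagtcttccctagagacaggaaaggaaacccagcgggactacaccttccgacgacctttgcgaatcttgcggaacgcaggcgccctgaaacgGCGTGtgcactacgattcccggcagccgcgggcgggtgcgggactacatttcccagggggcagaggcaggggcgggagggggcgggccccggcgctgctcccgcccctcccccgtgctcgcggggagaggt
MXI1, 15772 bp before the counted start, chr10:111969739-111969988, plus strand: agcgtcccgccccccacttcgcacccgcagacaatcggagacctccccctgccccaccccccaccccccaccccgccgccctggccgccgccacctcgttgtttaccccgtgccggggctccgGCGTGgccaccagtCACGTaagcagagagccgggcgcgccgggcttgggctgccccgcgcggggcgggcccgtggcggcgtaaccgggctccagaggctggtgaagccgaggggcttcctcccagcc
MXD1, 69 bp after the counted start, chr2:70141991-70142240, plus strand: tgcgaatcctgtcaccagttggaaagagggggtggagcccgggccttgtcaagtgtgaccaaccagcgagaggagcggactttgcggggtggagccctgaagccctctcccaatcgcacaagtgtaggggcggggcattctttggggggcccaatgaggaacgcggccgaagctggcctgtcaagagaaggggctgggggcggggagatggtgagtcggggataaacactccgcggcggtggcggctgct
MNT, 96 bp before the counted start, chr17:2304355-2304604, minus strand: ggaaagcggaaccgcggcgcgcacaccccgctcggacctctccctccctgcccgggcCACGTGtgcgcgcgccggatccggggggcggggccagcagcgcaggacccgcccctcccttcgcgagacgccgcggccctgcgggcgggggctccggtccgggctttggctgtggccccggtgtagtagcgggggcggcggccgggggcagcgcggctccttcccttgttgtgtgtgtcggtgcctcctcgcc

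The window at the counted MXI1 start held 1 GCGTG, 131 bases before the start. The upstream MXI1 start had 1 GCGTG and 1 ACGTG, 127 and 113 bases before it, and the remaining MXI1 start, 18398 bp upstream of the counted one, had neither. The MNT window held 1 CACGTG, 193 bases before the start, which reads ACGTG on both strands. The MXD1 window held none of these letters. The members whose sequences are not shown, MAX, MXD3, MXD4, MLX, MLXIP and MGA, each had a window with ACGTG or GCGTG. Those of MXD4 and MLX also held CACGTG. The motifs were thus not particular to the members with the highest changes. Over all 35114 RefSeq windows of the same length, 18.5% held ACGTG, 32.2% held GCGTG, 43.2% held at least one of the pair and 6.35% held CACGTG. These matches describe the letters and are not evidence of binding.

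Per unit length, MYC had by far the highest transcription of the network, with gene body levels of 31.5 and 52.3 RPKM in WT normoxia. It was followed by MNT (6.82 and 6.88 RPKM), MLX (5.18 and 6.52) and MXD3 (4.79 and 5.12). MLXIP, MAX, MXD4 and MGA had means from 1.32 to 1.75 RPKM, and neighbours in this part of the order overlapped. MXI1 (0.742 and 0.914 RPKM) and MXD1 (0.412 and 0.433 RPKM) were lowest, each below its neighbour in both libraries. In WT hypoxia, MXI1 moved from place 9 to place 6, with 1.61 and 2.34 RPKM, overlapping MAX and MXD4, while MYC, MNT and MXD1 held places 1, 2 and 10. In both HIF1A-/- groups MXI1 and MXD1 again held places 9 and 10, and MYC was first.

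**Figure D1:**
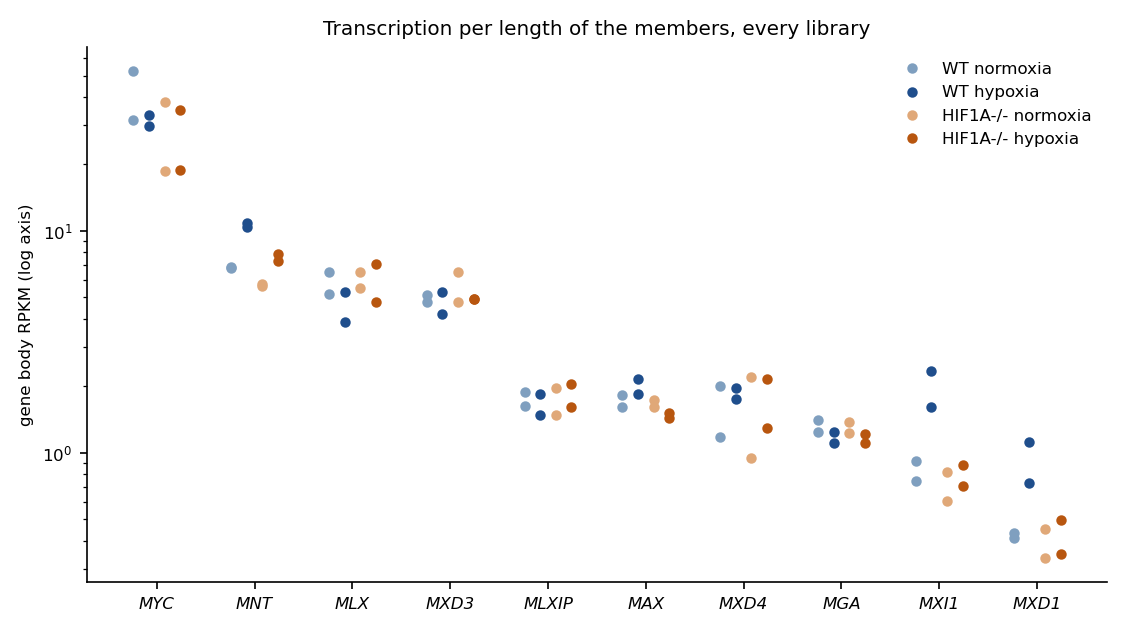
Gene body RPKM on a log axis for each of the 10 members, ordered by their mean in WT normoxia, with a point for each library and a colour for each group. MYC lies highest in every group, and the WT hypoxia points of MXI1 (1.61 and 2.34 RPKM) and MXD1 (0.729 and 1.12 RPKM) lie above all their other points.

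To see which members responded to hypoxia in WT cells, gene body counts were compared with edgeR at a false discovery rate of 10%. MXI1, MXD1 and MNT, all antagonists of MYC, had higher gene body transcription in both hypoxic WT libraries than in both normoxic ones, by 2.39-, 2.18- and 1.56-fold. None of the 10 members passed in the fit without the replicate number, although 3 had an unadjusted p under 0.05. All 3 passed when the replicate number entered the model as a block. Among all 16686 genes tested, 0.431% were called without the block and 5.51% with it. DESeq2 also called these 3 members, where it called 174 genes higher and 1 lower. The members' median log2 fold change was 0.08, against -0.02 over all genes tested. In these bulk libraries, more transcribing cells and more transcription per cell cannot be told apart.

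MXI1, which encodes a MAX partner that recruits SIN3 corepressors, had 44.8 and 55.1 CPM in WT normoxia and 97.3 and 141 CPM in WT hypoxia. The groups did not overlap, and both replicate pairs were higher in hypoxia, by 1.12 and 1.36 on the log2 scale. The log2 fold change was 1.26 ± 0.24 (SE), with an edgeR adjusted p of 0.141 without the block and 6.7e-04 with it. MXD1, the founding MXD repressor, had 11.6 and 11.1 CPM in WT normoxia and 19.6 and 30.0 CPM in WT hypoxia. Its groups did not overlap either, although its replicate pairs differed in size, at 0.75 and 1.44 on the log2 scale. The log2 fold change was 1.13 ± 0.28, with an edgeR adjusted p of 0.447 without the block and 0.0247 with it.

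MNT, a ubiquitously expressed MYC antagonist, had 109 and 108 CPM in WT normoxia and 173 and 166 CPM in WT hypoxia, with little spread within either group. Its log2 fold change was 0.64 ± 0.11, with an edgeR adjusted p of 0.101 without the block, just outside the threshold, and 0.0080 with it. By unadjusted p, MNT ranked 77, MXI1 92 and MXD1 155 of 16686 genes. MXD3 and MXD4, the remaining antagonists, had log2 fold changes of -0.06 ± 0.20 and 0.22 ± 0.43 and were not called with or without the block. MXD4 differed more between replicates, with 16.01 and 27.2 CPM in WT normoxia, than between conditions, with 23.6 and 26.5 CPM in WT hypoxia.

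MYC itself had 138 and 228 CPM in WT normoxia and 130 and 145 CPM in WT hypoxia. The ranges overlapped, and the normoxic libraries differed more than the group means did. Its log2 fold change of -0.41 ± 0.40 did not pass in edgeR without the block (adjusted p = 0.897) or with it (adjusted p = 0.523). It rested on the normoxic libraries, being -0.0027 without WT normoxia replicate 2 and -0.73 without WT normoxia replicate 1. MAX, the obligate partner, had 32.7 and 28.9 CPM in normoxia and 38.4 and 33.0 CPM in hypoxia in WT cells (log2 fold change 0.21 ± 0.15), and was not called. Whether counting used strand was not stated in the sources used here, and the MAX gene body overlaps LOC100506321 on the opposite strand over 3394 bp, while that of MLX overlaps PSMC3IP over 895 bp. MLX (log2 fold change -0.36 ± 0.25), MLXIP (-0.07 ± 0.19) and MGA (-0.17 ± 0.13) were not called under either fit.

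**Figure D2:**
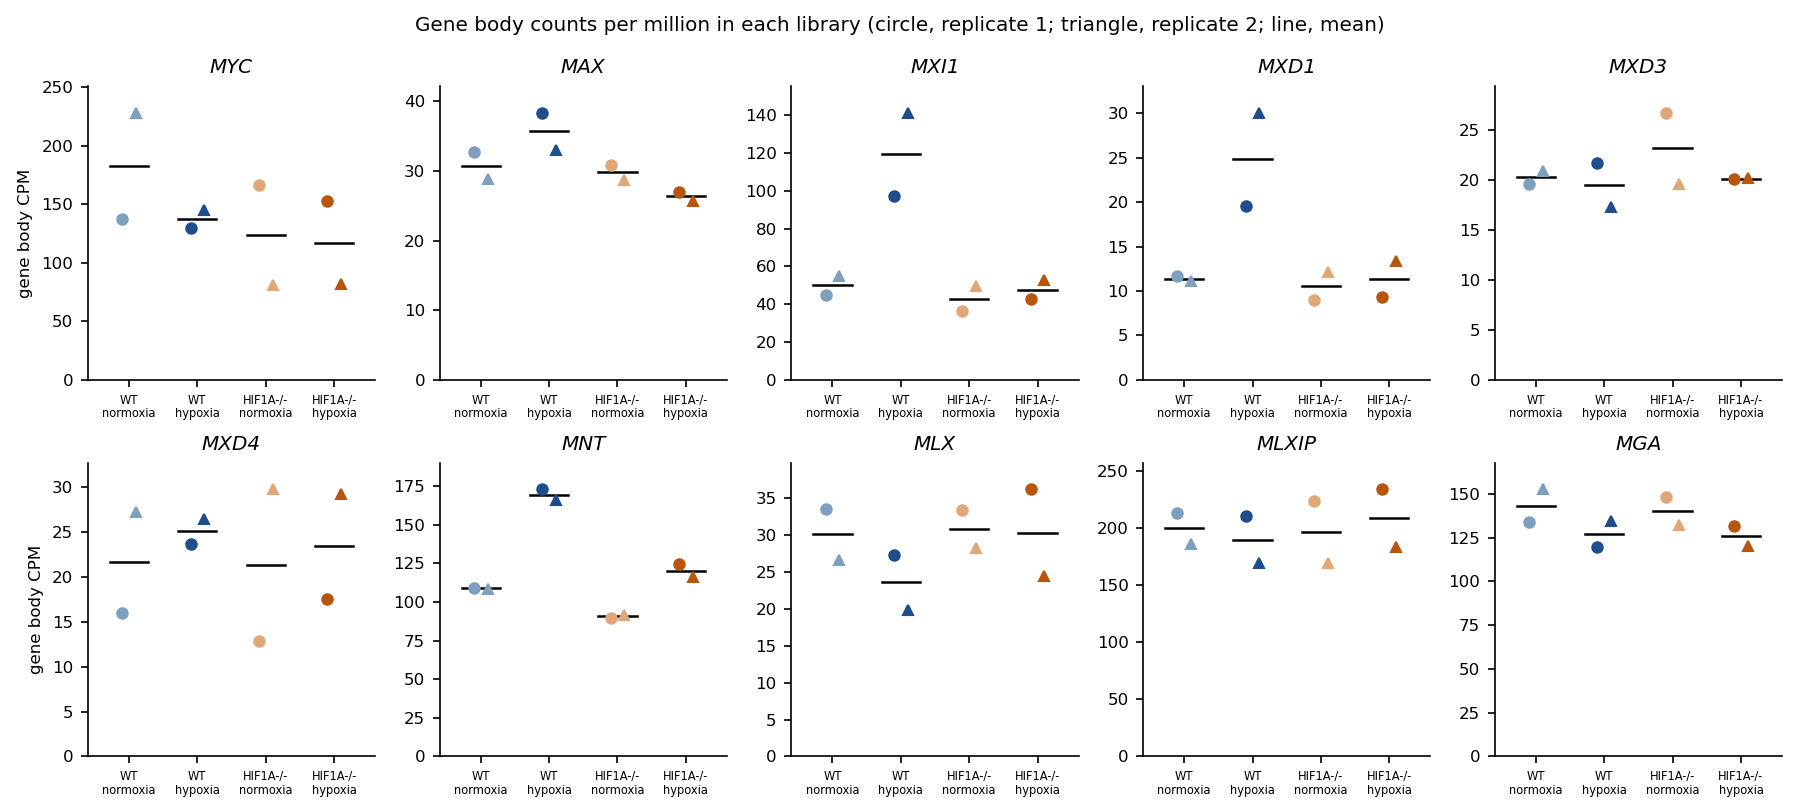
Gene body CPM of each member in the 8 libraries, on linear axes from 0, with a circle for replicate 1, a triangle for replicate 2 and a line at the group mean. For MXI1, MXD1 and MNT both WT hypoxia points lie above all other points, whereas the MYC points spread from 81.1 to 228 CPM and the groups overlap.

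In HIF1A-/- cells the same exposure to hypoxia gave no call among the members in edgeR, with or without the block, where 0% and 0.036% of all genes were called. One member, MNT, had an unadjusted p under 0.05. It was also the only one called by DESeq2 with the block, where 64 genes were called higher and 98 lower. MNT had 89.9 and 91.5 CPM in HIF1A-/- normoxia and 125 and 116 CPM in HIF1A-/- hypoxia. These groups did not overlap, and the log2 fold change was 0.41 ± 0.11, with an edgeR adjusted p of 1 without the block and 0.204 with it. MXI1 had 36.6 and 49.4 CPM in normoxia and 42.5 and 52.9 CPM in hypoxia, a log2 fold change of 0.15 ± 0.24 with overlapping groups. MXD1 likewise overlapped, with 9.0 and 12.2 CPM in normoxia and 9.4 and 13.3 CPM in hypoxia (0.10 ± 0.28). The values of MYC in HIF1A-/- cells split by replicate number. They were 167 and 153 CPM in replicate 1 and 81.1 and 81.6 CPM in replicate 2. The median over the members was 0.03, against 0.00 over all genes.

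The difference between the hypoxia responses of the genotypes was tested directly as an interaction. MXI1 had the highest difference, 1.11 ± 0.33 on the log2 scale, meaning that its response was 2.15-fold greater in WT than in HIF1A-/- cells. The interaction was not called by edgeR without the block (adjusted p = 1) and was called with it, at 1.08 ± 0.14 (adjusted p = 0.0205). It was the only member called, where 0.0539% of all genes were called without the block and 0.384% with it. MXD1 differed by nearly as much, 1.03 ± 0.40, without a call under either fit (adjusted p = 1 and 0.487). The difference for MNT was 0.23 ± 0.16 and that for MAX 0.39 ± 0.22, again without a call. At an unadjusted p under 0.05, 2 members were counted without the block, MXI1 and MXD1. DESeq2 without the block called none of the members, where it called 68 genes higher and 0 lower.

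**Figure D3:**
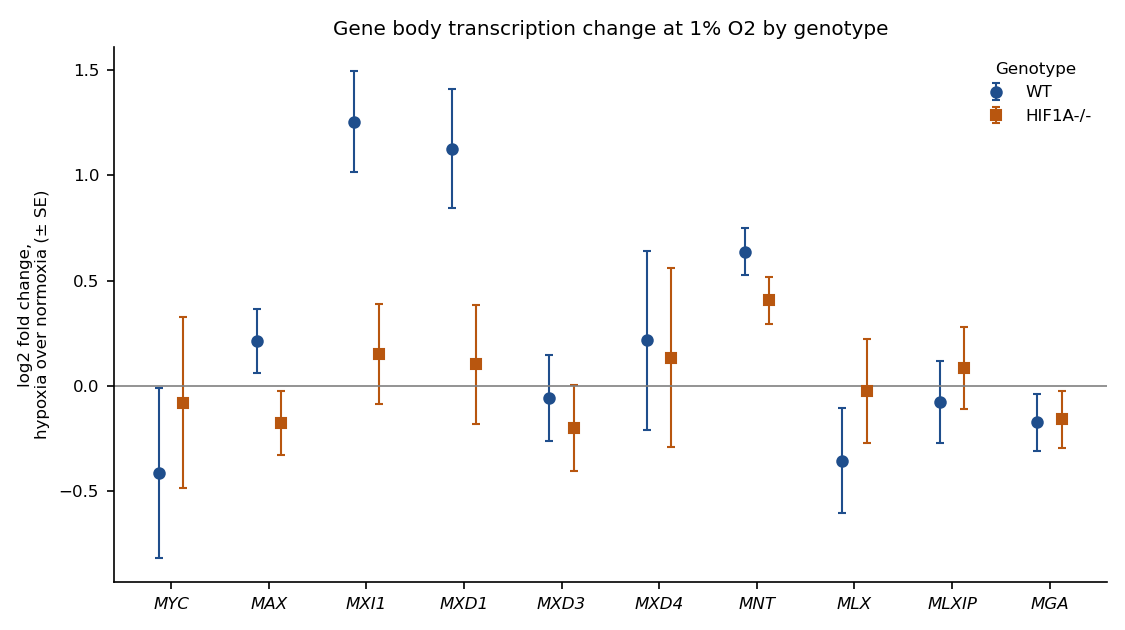
Log2 fold change of gene body counts, hypoxia over normoxia, in WT (circles) and HIF1A-/- cells (squares) for each member, from edgeR without the block, with bars of 1 standard error and 2 libraries per group. MXI1 is at 1.26 in WT and 0.15 in HIF1A-/- cells, MXD1 at 1.13 and 0.10, and MNT at 0.64 and 0.41, while every other value lies between -0.41 and 0.22.

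The genotypes were next compared within each oxygen level. In hypoxia, 3 of 10 members had lower gene body transcription in HIF1A-/- than in WT cells in edgeR without the block, where 4.26% of all genes were called. These were MXI1 (log2 fold change -1.32 ± 0.24, adjusted p = 0.0318), MNT (-0.49 ± 0.11, adjusted p = 0.0714) and MXD1 (-1.13 ± 0.28, adjusted p = 0.0980). MXI1 was not called without WT hypoxia replicate 2 or without HIF1A-/- hypoxia replicate 1, with the highest adjusted p over the alternatives at 0.236. MNT and MXD1 each lost the call in 8 of 14 alternatives, with adjusted p up to 0.306 and 0.628. This comparison shares its WT hypoxia libraries with the comparison of hypoxia and normoxia in WT cells.

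With the block 5 members were called, where 28.2% of all genes were. The members added were MAX, lower in HIF1A-/- cells (-0.43 ± 0.10, adjusted p = 0.0238), and MLX, higher (0.36 ± 0.12, adjusted p = 0.0703). MAX had 38.4 and 33.0 CPM in WT hypoxia and 27.0 and 25.7 CPM in HIF1A-/- hypoxia, with no overlap. In normoxia DESeq2 called no member over gene bodies, where it called 299 genes higher and 331 lower without the block and 674 and 895 with it. No member was called by edgeR either, without or with the block, where 1.78% and 10.3% of all genes were. MNT, the only member with an unadjusted p under 0.05 there, was at -0.26 ± 0.11, MXI1 at -0.22 ± 0.24 and MYC at -0.56 ± 0.41, with a range for MYC of -1.13 to -0.14 over the alternatives.

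TSS regions hold mostly polymerase that has initiated and is paused close to the promoter. In WT hypoxia, MXD1 was the member that gained TSS signal past the test with the block, where 1.01% of all 15212 TSS regions tested were called. It had 43.7 and 44.1 CPM in WT normoxia and 68.3 and 71.3 CPM in WT hypoxia, and both pairs were higher by about the same amount. The log2 fold change was 0.67 ± 0.19, with an edgeR adjusted p of 0.922 without the block and 0.0854 with it. No member was called without the block, where 0.046% of TSS regions were, although 2 had an unadjusted p under 0.05. DESeq2 called none of the members, where it called 15 TSS regions higher and 0 lower without the block and 55 and 9 with it. In HIF1A-/- cells no TSS region of a member was called without or with the block, where 0% and 0.00657% of all TSS regions were, and none had an unadjusted p under 0.05. The genotype difference at the TSS likewise gave no member called by edgeR, where 0.00657% and 0.046% of all TSS regions were, and none had an unadjusted p under 0.05 without the block.

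The TSS signal of MXI1 was 24.0 and 23.0 CPM in WT normoxia and 25.4 and 20.7 CPM in WT hypoxia. The log2 fold change was -0.03 ± 0.30, with overlapping groups. HIF1A-/- cells had 15.6 and 10.7 CPM in normoxia, both below WT normoxia, and 15.6 and 21.0 CPM in hypoxia. For HIF1A-/- against WT in normoxia, MXI1 had the lowest TSS log2 fold change of the members, -0.86. It was not called without or with the block, where 0.657% and 4.29% of all TSS regions were. The counted TSS is the one of its RefSeq starts that the authors' annotation kept, and transcripts from the upstream starts also cross the counted regions, so reads from the starts cannot be told apart. MNT TSS signal was 27.3 and 24.0 CPM in WT normoxia and 36.8 and 52.6 CPM in WT hypoxia, without overlap, but its log2 fold change of 0.80 ± 0.30 was not called. MXD4 had few TSS reads, 2.9 to 8.4 CPM, and a log2 fold change of 0.81 ± 0.50 that was not called.

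MYC TSS signal was lower in HIF1A-/- than in WT cells at both oxygen levels and overlapped between oxygen levels within each genotype. WT cells had 640 and 826 CPM when normoxic and 692 and 805 CPM when hypoxic. HIF1A-/- cells had 507 and 481 CPM when normoxic and 517 and 488 CPM when hypoxic. All 4 HIF1A-/- libraries were below all 4 WT libraries. The log2 fold change of HIF1A-/- against WT was -0.57 ± 0.15 in normoxia and -0.58 ± 0.15 in hypoxia. Neither was called by edgeR without the block (adjusted p = 0.252 and 0.147), and both were called with it (adjusted p = 0.0160 and 0.0069), where 4.29% and 14.4% of all TSS regions were called. Without the block the shares of all TSS regions called were 0.657% and 1.1%, and 2 and 3 members had an unadjusted p under 0.05. TSS totals were 3813025 to 5966348 reads in WT libraries. In HIF1A-/- cells they were lower in replicate 1, at 2783581 in normoxia and 3011758 in hypoxia. In replicate 2 they were 4288308 and 4276956, inside the WT range. The part of read totals in the MYC difference was not tested. MLXIP TSS signal was higher in HIF1A-/- hypoxia (290 and 257 CPM) than in WT hypoxia (222 and 192 CPM), a log2 fold change of 0.40 ± 0.14 that edgeR called with the block only (adjusted p = 0.260 and, with the block, 0.0370).

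The pausing index, the density of reads in the TSS region over that in the gene body, relates both measurements. MXI1 had an index of 58.7 and 45.6 in WT normoxia and 28.6 and 16.1 in WT hypoxia, so that the index was lower in both hypoxic libraries. The log2 fold change was -1.28 ± 0.32, with an edgeR adjusted p of 0.340 without the block and 0.0249 with it. It was the only member called, where 0.193% of 14494 genes were called without the block and 0.483% with it. Transcripts from the upstream MXI1 starts also cross the counted gene body. A change in pausing and a change in the use of starts therefore cannot be told apart in this index. MXD1, whose TSS and gene body signals were both higher, had 183 and 194 in WT normoxia and 170 and 116 in WT hypoxia (-0.43 ± 0.29, not called). In HIF1A-/- cells no member and no other gene was called (0% under both fits), and no member had an unadjusted p under 0.05. MXI1 there had 46.6 and 23.7 in normoxia and 40.1 and 43.4 in hypoxia, with wide overlap, and the difference between genotypes in the change of the index (-1.64 ± 0.48) was not called without the block (adjusted p = 1) or with it (adjusted p = 0.206), where 0.0207% and 0.145% of all genes were. In WT normoxia the index was highest for MLXIP (231 and 243) and lowest for MXD4 (8.55 and 2.61, from 25 and 11 TSS reads) and MNT (7.21 and 6.40), whose ranges overlapped.

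**Figure D4:**
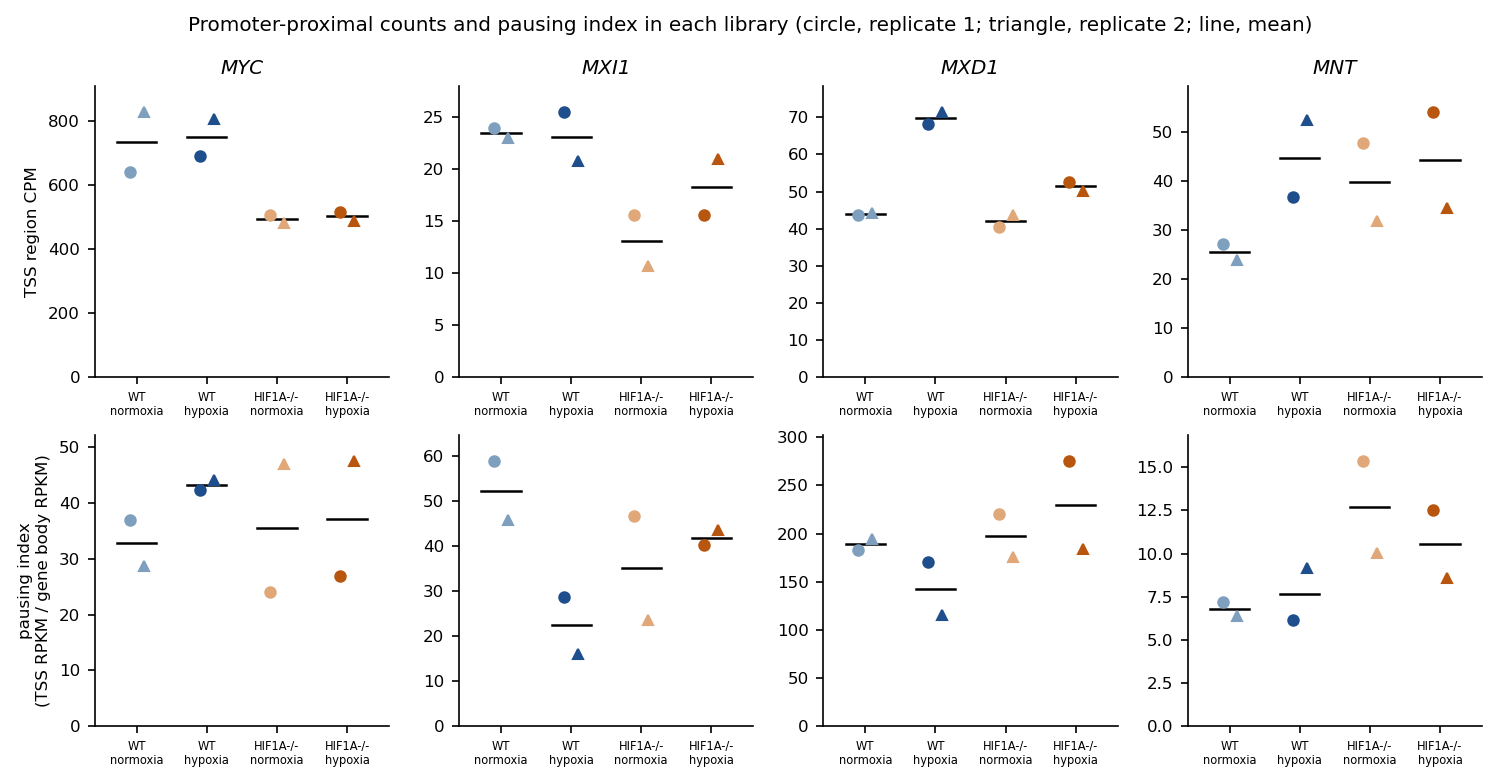
TSS region CPM (top) and pausing index (bottom) of MYC, MXI1, MXD1 and MNT in the 8 libraries, on linear axes from 0, with circles for replicate 1, triangles for replicate 2 and a line at the group mean. MYC TSS points of HIF1A-/- cells (481 to 517 CPM) lie below those of WT cells (640 to 826 CPM), and the MXI1 index in WT hypoxia (28.6 and 16.1) lies below that of every other library except a HIF1A-/- normoxia library at 23.7.

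The genes whose gene body pattern was most like that of MXI1 were found by the root mean square difference of log2 CPM, centred on each gene's mean, over the 8 libraries and among 16685 other genes. The 3 nearest to MXI1 were C4orf3 (difference 0.10), ARRDC3 (0.12) and UPK1A-AS1 (0.13), against a range of 1.95 for MXI1 itself. WT cells had 32.5 and 36.2 CPM of C4orf3 when normoxic and 76.3 and 112 CPM when hypoxic, and the HIF1A-/- libraries had 29.7 to 36.1 CPM. The 3 nearest to MXD1 were PDK3, a pyruvate dehydrogenase kinase (0.11), SEMA4B (0.12) and TMEM144 (0.12). Those nearest to MYC, ZBED2 (0.18), DUXAP10 (0.19) and ZNF485 (0.20), lay farther off, although MYC had the smaller range, 1.49. ZBED2, like MYC, was highest in WT normoxia replicate 2 (2.35 CPM) and lowest in replicate 2 of HIF1A-/- cells (0.71 and 0.82 CPM).

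Genes that act with the network were described by lists. Of 18 corepressors and coactivators, all tested, 1 was called in WT hypoxia, both without the block, where 0.431% of all genes were called, and with it, where 5.51% were. At an unadjusted p under 0.05 there was 1 without the block and 6 with it, against 0 and 1 in HIF1A-/- cells. The gene called was SAP30, a subunit of the SIN3 histone deacetylase complex that MXD proteins recruit. WT cells had 4.56 and 4.69 CPM of SAP30 when normoxic and 13.3 and 18.5 CPM when hypoxic. The HIF1A-/- libraries had 2.65 to 3.29 CPM of SAP30. It rose by 1.78 ± 0.26 on the log2 scale in WT cells (edgeR adjusted p = 0.0519), against -0.04 ± 0.27 in HIF1A-/- cells. The difference between genotypes, 1.82 ± 0.38, was called with the block only (adjusted p = 0.548 and, with the block, 0.0697). The other members of the list lay lower, and the median over the 18 was -0.14 in WT and -0.05 in HIF1A-/- cells.

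Among 12 genes that control MYC protein turnover, none was called for hypoxia in either genotype by edgeR, where 0.431% (WT) and 0% (HIF1A-/-) of all genes were called without the block and 5.51% and 0.036% with it. At an unadjusted p under 0.05 there were 1 (WT) and 0 (HIF1A-/-) without the block and 2 and 4 with it, and the medians were -0.14 and -0.19. USP28, a deubiquitinase that stabilises MYC, was at 65.3 and 62.9 CPM in normoxic and 83.6 and 80.0 CPM in hypoxic WT cells, and at 50.4 to 55.5 CPM in the HIF1A-/- libraries. In the comparison of the genotypes in hypoxia it was lower in HIF1A-/- cells (-0.63 ± 0.13, edgeR adjusted p = 0.0487 without the block). There 4.26% of all genes were called without the block and 28.2% with it. USP28 was not the only list gene called in that comparison. Among the corepressors and coactivators the smallest edgeR adjusted p was 0.0048 without the block. With the block, the lists described below of MGA partners, other family members, MYC-induced genes and MYC-repressed genes also held calls. None of 9 partners of MGA was called for hypoxia in either genotype, with or without the block, with 1 and 0 at an unadjusted p under 0.05 without it and 4 and 0 with it. The medians of these partners were -0.11 and -0.03. Of the family members outside the 10, MYCN was at a count of 0 in all libraries, and MYCL (0.18 ± 0.31) and MLXIPL (-0.18 ± 0.14), a glucose-responsive relative of MLXIP, were not called in WT hypoxia. Of the MondoA targets, TXNIP was below the filter and ARRDC4 was at -0.66 ± 0.41 in WT hypoxia, also not called.

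Targets of MYC were described last. Of 30 genes that MYC is known to induce, 26 were tested, and 22 of them had a log2 fold change below 0 in WT hypoxia, with a median of -0.23 against -0.02 over all genes. None was called without the block, where 0.431% of all genes were, or reached an unadjusted p under 0.05. With the block 1 of the 26 was called, HSPD1, a mitochondrial chaperonin, where 5.51% of all genes were, so the list held no more calls than that share. At an unadjusted p under 0.05 the blocked fit counted 7 of the 26 in WT and 2 in HIF1A-/- cells. The share of all genes at that p was not counted. At the 10% threshold the blocked fit called 5.51% of all genes in WT and 0.036% in HIF1A-/- cells. HSPD1 was at 324 and 218 CPM in normoxic and 229 and 149 CPM in hypoxic WT cells, and at 377 and 229 CPM in normoxic and 247 and 152 CPM in hypoxic HIF1A-/- cells. It fell by 0.53 ± 0.08 with the block in WT cells (edgeR adjusted p = 0.0187) and was at -0.60 ± 0.08 in HIF1A-/- cells (adjusted p = 0.114). In HIF1A-/- cells 17 of the 26 lay below 0, with a median of -0.06, and the median difference between genotypes was -0.13, with no call with or without the block.

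The median of the MYC-induced genes in WT cells turned on single libraries. It was -0.02, with 16 of 26 below 0, without WT hypoxia replicate 2, and -0.45, with 23 below 0, without WT hypoxia replicate 1. Without WT normoxia replicate 1, it was -0.13. Within replicate pairs the median was -0.10 in replicate 1 and -0.33 in replicate 2. Of 6 genes that MYC is known to repress, all tested, 4 lay above 0 in WT hypoxia and 2 in HIF1A-/- cells. Their medians were 0.04 and -0.12. None was called for hypoxia in either genotype, where edgeR called 0.431% (WT) and 0% (HIF1A-/-) of all genes without the block. With the block those shares were 5.51% and 0.036%, and again none of the 6 was called. At an unadjusted p under 0.05 there was none in either genotype without the block, and 2 (WT) and 0 (HIF1A-/-) with it.

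**Figure D5:**
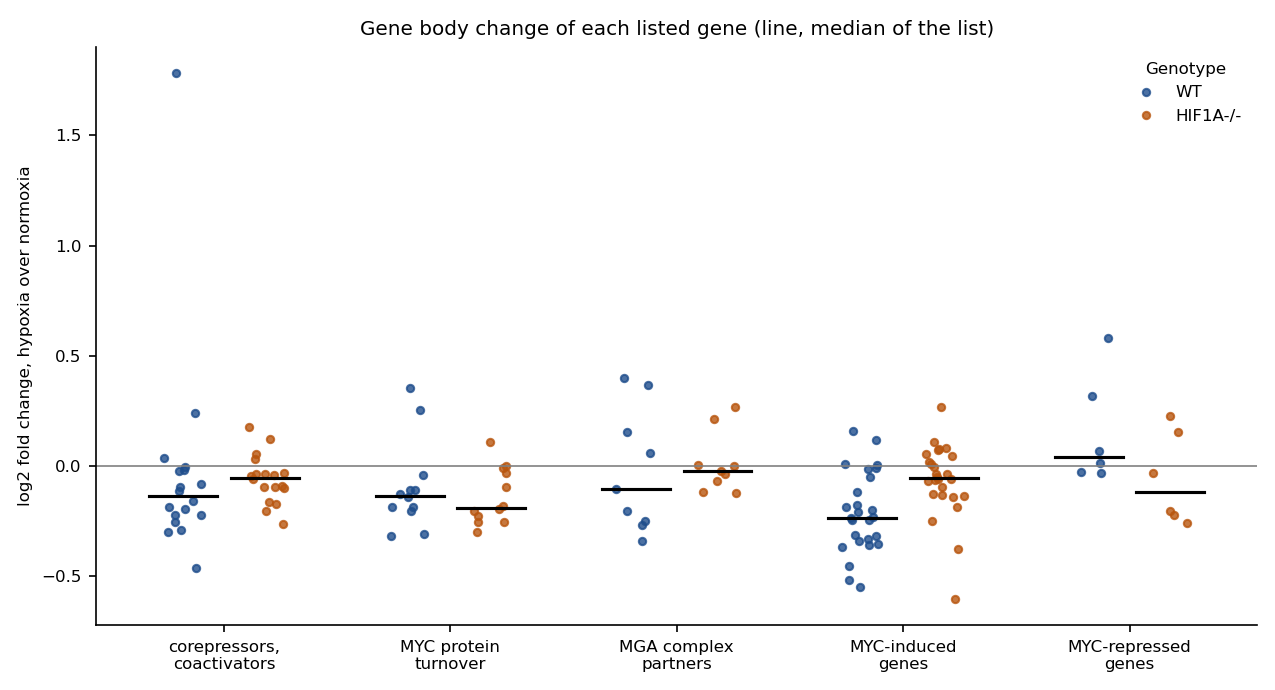
Log2 fold change of gene body counts, hypoxia over normoxia, for every tested gene of 5 lists in WT (blue) and HIF1A-/- cells (orange), with a line at the median of each list. SAP30, at 1.78 in WT cells, stands above the other corepressors and coactivators, and the MYC-induced genes have medians of -0.23 in WT and -0.06 in HIF1A-/- cells.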

How the data were processed

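The authors trimmed the PRO-seq reads, aligned them to GRCh37 with HISAT2 2.1.0 without spliced alignment, and deposited raw counts per gene from featureCounts (Subread 1.6.2), for a single TSS region and a single gene body of each gene. A gene with several active starts is thus represented by 1 start. Counts were tested here with edgeR 4.0.16 (R 4.3.3), with TMM scaling, genes above 0.5 CPM in at least 2 libraries, 4 group means fitted over all 8 libraries, quasi-likelihood tests and Benjamini-Hochberg adjustment over all genes tested at 10%. CPM and RPKM values are TMM-scaled. The pausing index was tested with both counts of each library in 1 model. Alternatives were DESeq2 1.42.0, library totals without TMM, no filter, the compared groups alone, the replicate number as a block, and leaving out each library. Deviations from the group means of libraries with the same replicate number, a number given in the labels, correlated in all 6 pairs of groups (gene body 0.468 to 0.748, TSS 0.159 to 0.423), so the blocked value is given where it changes a call. All members and the genes most like MXI1, MXD1 and MYC were named, and list genes only where called or in lists of 2 or 3. The members and lists were chosen with earlier results of these data known. Counts at an unadjusted p under 0.05 were not set against the share of all genes at that p, so they describe the members and lists only. P-values rest on an estimate of the spread between libraries that the 4 groups of 2 share, and with the block on what remains after the replicate term. Each genotype was 1 line, so loss of HIF1A and other differences between the lines cannot be told apart.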

Additional observations from a re-analysis of the deposited data

Results flagged for a closer look

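The gene body response of MXI1 to hypoxia differed between the genotypes in the test of the difference itself when the replicate number was a block (edgeR adjusted p = 0.0205), and not without it (adjusted p = 1). Over its 13 alternatives, the block included, the difference lay between 0.82 and 1.35 on the log2 scale and its adjusted p between 5.5e-06 and 1.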

How the results depend on the processing

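Over gene bodies, the number of members called for hypoxia in WT cells, 0 in edgeR, was 3 with the replicate block, 3 with DESeq2, 3 with DESeq2 and the block, 1 (MNT) with library totals, 1 (MXI1) without the filter, and 0 to 1 when a library was left out. Over all genes, WT hypoxia gave 623 higher and 296 lower with the block. DESeq2 gave 174 and 1 without the block and 672 and 356 with it. Library totals gave 76 higher and 0 lower, and no filter gave 95 and 0. For hypoxia in HIF1A-/- cells the number of members called was 1 (MNT) with DESeq2 and the block, where 64 genes were higher and 98 lower. For the genotype difference it was 1 (MXI1) with the block, where 64 genes were higher and 0 lower. It was also 1 with DESeq2 and the block, where 122 were higher and 0 lower. For HIF1A-/- against WT in hypoxia, 3 were called, against 5 with the block, 1 with only the compared groups and 0 to 3 when a library was left out. It was 0 without WT hypoxia replicate 2 or HIF1A-/- hypoxia replicate 1, and 1 (MXI1) without WT hypoxia replicate 1, HIF1A-/- hypoxia replicate 2 or either WT normoxia library. Over TSS regions, the block gave 1 call for WT hypoxia, 1 for HIF1A-/- against WT in normoxia and 2 in hypoxia, and DESeq2 with the block gave 1 and 2 for the latter pair. No filter gave 1 and 1 for that pair, and in hypoxia DESeq2 and the compared groups alone gave 1 each, and leaving out a library 0 to 1. The pausing index in WT had 1 call (MXI1) with the block and 0 to 1 when a library was left out. Over all genes, HIF1A-/- against WT in hypoxia gave 227 gene bodies higher and 412 lower with only the compared groups. At the TSS it gave 160 higher and 152 lower with DESeq2, and 557 and 526 with DESeq2 and the block. No filter gave 587 and 476 there, and the compared groups alone 506 and 433. In normoxia the TSS numbers were 139 and 156 with DESeq2 and the block, and 214 and 192 without the filter. No called fold change reversed. The MYC gene body change, never called, ranged over the alternatives from -0.73 to -0.0027 for WT hypoxia and from -0.58 to 0.51 for HIF1A-/- hypoxia. Leaving out libraries turned the sign of values that were not called, which ranged in WT gene bodies from -0.23 to 0.11 for MXD3, -0.12 to 0.65 for MXD4 and -0.24 to 0.083 for MLXIP, in HIF1A-/- gene bodies from -0.062 to 0.38 for MXI1 and -0.18 to 0.35 for MXD1, in HIF1A-/- against WT in normoxia from -0.45 to 0.024 for MXI1, and at the WT TSS from -0.19 to 0.11 for MXI1. The block changed no other call of a member. With 2 libraries per group, small changes were not detectable, and the causes of these dependences were not tested.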

Other observations

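The summed gene body RPKM of MXD1, MXI1, MXD3, MXD4 and MNT relative to that of MYC, a ratio chosen after the values were seen, was 0.445 and 0.292 in normoxic WT cells and 0.683 and 0.604 in hypoxic WT cells. The HIF1A-/- libraries had ratios of 0.369 and 0.753 under normoxia and 0.431 and 0.843 under hypoxia, where replicates of the same number lay closer together than libraries of the same oxygen level. Without MXD3 and MXD4, the sum of MXI1, MXD1 and MNT alone was 8.05 and 8.14 RPKM in normoxic WT cells. In hypoxic WT cells this sum was 13.2 and 13.9 RPKM. In HIF1A-/- cells it was 6.60 and 7.02 RPKM under normoxia and 8.89 and 8.66 RPKM under hypoxia. The genes summed had the highest fold changes of the members in WT hypoxia. A higher sum in hypoxic WT cells therefore followed from the choice of genes. Most of the sum in WT cells was MNT, at 6.88 and 6.82 RPKM in normoxia and 10.9 and 10.4 RPKM in hypoxia. The sum thus does not test a joint gain of the antagonists.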
